A study of Mus musculus with 36 samples.

Results

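Common lymphoid progenitors (CLPs) of mouse bone marrow held 896 regions of open chromatin that were called in at least 3 of the 4 CLP libraries and in 0 of the 32 libraries of the other fractions. They were chosen by their calls in these same libraries, out of a catalogue of 105005 regions made by merging the peaks of all 36 libraries that overlapped by 1 bp or more. These 896 regions, called CLP-only regions here, made up 0.853% of the catalogue and 3.34% of the 26789 regions called in at least 3 CLP libraries. Most regions open in CLPs were therefore also called elsewhere. The same rule gave 13018 GMP-only and 526 MEP-only regions, 24.9% and 6.24% of the regions called in at least 3 libraries of those fractions. The fractions differed in peaks per library, with medians of 32065 in CLPs, 60909.5 in GMPs and 9997 in MEPs. With every library but those of MEPs cut to its strongest 27087 peaks, 1472 regions were CLP-only.

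ATAC-seq marks open chromatin with a transposase that cuts accessible DNA and leaves sequencing adapters there. It was run on 8 sorted fractions of C57BL/6 marrow: HSCs, MPP1 to MPP4 (multipotent progenitors), the progenitors of granulocytes and macrophages (GMPs), those of megakaryocytes and erythrocytes (MEPs), and CLPs. Young mice were 10 weeks and aged mice 20 months old. There were 4 HSC libraries and 2 of each further fraction at either age, each from 20000 cells. The mice carried no transgene or treatment by the labels, and per the study's methods marrow was pooled within an age and then sorted, so libraries of 1 age may share a pool and their spread may be technical. CLPs were sorted by the labels as lineage-negative cells, low for Sca-1 and c-kit and positive for the IL-7 marker, and the study's lineage cocktail included the B cell antigen B220. A library gave between 9581 peaks (an MEP library) and 63288 peaks (a GMP library), and the CLP libraries gave 29936 and 34205 (young) and 27117 and 34194 (aged). The deposited lists hold no read counts, so the depth of each region is unknown, and a missing call is not the absence of open chromatin. In sorted populations, a region open in fewer cells and a region less open in each cell cannot be told apart.

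CLPs are the marrow progenitors from which B cells, and under suitable conditions T cells, natural killer cells and part of the dendritic cells, arise. Their priming towards lymphoid fates is known to depend on E proteins, basic helix-loop-helix factors (E2A, HEB and E2-2) that bind E-box sequences, and on RUNX factors, PU.1, IRF factors, Ikaros and EBF1. Distal regions of open chromatin in such cells are often enhancers, which differ between cell types more than promoters do.

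The label was checked against promoters of marker genes. Promoters of Il7r (the IL-7 receptor), Flt3 (the cytokine receptor of early lymphoid cells) and Notch1 were called in 4 of 4 CLP libraries, Ebf1 in 3 and Rag1, of the recombinase that assembles antigen receptors, in 2. The promoters of Dntt, Rag2, Cd79a and Ly6d were called in none of the 36 libraries. Of the myeloid markers, 6 of 8 promoters were called in 0 CLP libraries. Mpo, Elane and Csf1r were among them and were each called in 4 of 4 GMP libraries. Prtn3, also among the 6, was called in none of the 36 libraries and so did not test the label. Cebpa, however, was called in 4 CLP libraries and Csf3r in 2. MEP promoters did not test the label, since the 6 of 8 called in 0 CLP libraries were also called in 0 MEP libraries. Of the HSC list, Hlf was called in 4 CLP libraries, Meis1 in 3, Mecom in 2 and the other 4 of 7 in 0. Of those 4, only Procr was called in HSC libraries (4), so Fgd5, Prdm16 and Slamf1 did not test the label. The B cell promoters of Pax5, Ms4a1 and Cd22 and the T and NK promoters of Cd3e, Cd3g and Eomes were called in none of the 36 libraries and so bear on no fraction. Klrb1c was called in 0 CLP libraries, Bcl11b in 1, Lck in 3 and Gata3 in 4, and Gata3 also in 31 other libraries. Of the plasmacytoid dendritic list, Siglech, Bst2 and Tcf4 were called in 4 and Ccr9 in 0. Siglech and Il7r were each called in 8 libraries outside CLPs, the MPP4 and GMP libraries, and Bst2 and Tcf4 in all 32. The promoter calls do not separate CLPs from other lymphoid cells or from earlier progenitors, and the part of plasmacytoid dendritic or other cells in the regions below was not tested.

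The sequences of members that carry the findings are shown first, with matches to the E-boxes CAGCTG and CAGGTG, to the RUNX pattern TGTGGTT and to the ETS-IRF composite GGAANNGAA in capitals, on either strand. All are the plus strand of the RefSeq assembly GRCm38.p6, which is the assembly of mm10. The first set holds the median summit with 75 bp on either side for 3 of the strongest members, ranked by where fold enrichment stood among all regions of the library in which it stood lowest. Each held 1 E-box in this window.

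Ccr9 intron, chr9:123763004-123763154: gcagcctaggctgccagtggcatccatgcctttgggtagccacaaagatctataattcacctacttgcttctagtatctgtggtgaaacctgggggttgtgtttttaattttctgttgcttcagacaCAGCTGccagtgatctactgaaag
upstream of Stc1, chr14:68918652-68918802: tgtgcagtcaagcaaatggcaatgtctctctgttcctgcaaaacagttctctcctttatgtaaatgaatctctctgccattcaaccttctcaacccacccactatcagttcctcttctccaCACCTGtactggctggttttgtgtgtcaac
Gtf2i promoter, chr5:134295765-134295915: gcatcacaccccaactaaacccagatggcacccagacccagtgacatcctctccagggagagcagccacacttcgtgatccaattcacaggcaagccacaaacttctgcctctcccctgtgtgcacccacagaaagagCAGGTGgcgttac

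The second set holds the same window for the strongest member nearest to genes of the lymphoid and dendritic lists described below. E-boxes were present at Foxo1, S1pr1 and Tcf12, an ETS-IRF composite at S1pr1 and Tcf12 and a RUNX match at Ly6d. The windows at Tox, Siglech and Rora held none of these letters.

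downstream of Foxo1, chr3:52396312-52396462: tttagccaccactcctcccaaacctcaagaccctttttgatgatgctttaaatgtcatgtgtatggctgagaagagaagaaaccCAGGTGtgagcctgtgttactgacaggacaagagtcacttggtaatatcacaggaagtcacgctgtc
downstream of S1pr1, chr3:115702202-115702352: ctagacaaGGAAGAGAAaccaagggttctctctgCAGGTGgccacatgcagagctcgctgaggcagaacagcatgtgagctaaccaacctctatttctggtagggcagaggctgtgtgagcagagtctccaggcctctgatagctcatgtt
upstream of Tcf12, chr9:72166816-72166966: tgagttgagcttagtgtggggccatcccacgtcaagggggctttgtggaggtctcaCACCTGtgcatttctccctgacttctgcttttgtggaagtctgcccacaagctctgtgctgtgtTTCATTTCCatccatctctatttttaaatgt
upstream of Ly6d, chr15:74769273-74769423: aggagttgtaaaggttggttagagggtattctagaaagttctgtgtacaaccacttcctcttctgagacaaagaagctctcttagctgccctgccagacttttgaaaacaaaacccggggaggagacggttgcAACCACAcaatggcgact
upstream of Siglech, chr7:55744644-55744794: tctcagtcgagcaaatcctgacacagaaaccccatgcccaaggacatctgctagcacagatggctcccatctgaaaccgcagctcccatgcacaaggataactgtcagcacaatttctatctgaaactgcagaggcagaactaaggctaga
upstream of Tox, chr4:7485655-7485805: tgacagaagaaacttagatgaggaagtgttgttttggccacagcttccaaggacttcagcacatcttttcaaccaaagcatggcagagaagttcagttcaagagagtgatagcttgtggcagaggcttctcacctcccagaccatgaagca
Rora intron, chr9:68884679-68884829: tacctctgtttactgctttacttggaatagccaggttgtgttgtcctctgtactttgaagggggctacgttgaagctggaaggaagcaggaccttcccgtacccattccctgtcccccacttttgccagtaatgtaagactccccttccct

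The third set holds the summit with 100 bp on either side for 2 of the members with most E-boxes, chosen after the counts were seen, to show how these lie. The 5 E-boxes of the Rnf187 intron lay 46 to 48 bp apart in copies of a repeated unit, whereas the 4 E-boxes nearest to Slc6a6 lay in different surroundings.

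Rnf187 intron, chr11:58935347-58935547: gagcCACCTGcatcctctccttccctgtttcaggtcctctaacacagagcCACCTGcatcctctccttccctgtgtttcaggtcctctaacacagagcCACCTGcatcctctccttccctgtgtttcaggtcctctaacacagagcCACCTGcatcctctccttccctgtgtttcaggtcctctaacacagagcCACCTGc
upstream of Slc6a6, chr6:91658382-91658582: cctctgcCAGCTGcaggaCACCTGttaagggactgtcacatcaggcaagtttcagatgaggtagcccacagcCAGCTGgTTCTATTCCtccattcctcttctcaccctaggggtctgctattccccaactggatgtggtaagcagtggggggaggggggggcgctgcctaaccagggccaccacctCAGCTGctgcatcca

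CLP-only regions lay away from promoters. Only 15 of 896 (1.67%) had their centre in a promoter, defined as the 1000 bp before and the 100 bp after a TSS, against 12.1% of all regions and 29.7% of regions called in at least 3 CLP libraries. Introns held 420 members (46.9%) and intergenic DNA 426 (47.5%), with 20 in coding exons and 15 in UTRs. The median distance to the nearest TSS was 34472.5 bp, against 18733 bp in the whole catalogue, and 21.9% lay over 100 kb from any TSS, against 14.7%. The median width was 347 bp, against 336 bp over the catalogue and 569 bp for regions called in at least 3 CLP libraries. Mean GC content within 100 bp of the summit was 48.4% ± 6.22 (SD over regions), against 51.2% ± 9.38 over the catalogue. GMP-only and MEP-only regions were likewise rare at promoters (3.21% and 3.23%), but their median distances to a TSS were 21955 and 17018 bp, and 13.9% and 8.17% lay over 100 kb away.

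The rule fixed the calls, and the strength of the members is given as a description. Of the 896 members, 494 (55.1%) were called in 4 of 4 CLP libraries and 402 in 3. The 2 libraries numbered 1 called 748 (young) and 722 (aged) members, and those numbered 2 called 849 and 863. The library without a call was young CLP 1 for 148 members, aged CLP 1 for 174, young CLP 2 for 47 and aged CLP 2 for 33. Young CLP 1 thus lacked the call for 36.8% and aged CLP 1 for 43.3% of members called in 3 libraries, against 24.99% and 56.6% of all regions called in 3 CLP libraries. The missing calls fell mainly in the libraries with fewer peaks, in both ages. Peak names in both libraries numbered 2 hold the word "new", whose meaning the sources used here do not give.

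Mean fold enrichment over local background, the ratio deposited with each peak, had a median of 7.57 over members, against 9.10 over all regions called in at least 3 CLP libraries. Members called in 4 libraries had a median of 8.30, and those called in 3 had 6.76. Just outside the rule, 656 regions called in 2 CLP libraries and in 0 others had a median of 6.31, and 370 regions called in at least 3 CLP libraries and in 1 other had 7.60. Of those 370, the single other library was a GMP library for 192 (48.0 per library), an MPP4 library for 130 (32.5 per library) and an MEP library for 0. It was an HSC, MPP1, MPP2 or MPP3 library for 19, 7, 10 and 12 regions. GMP libraries call more of the genome, between 52576 and 63288 peaks, whereas the 4 MPP4 libraries had between 33302 and 34633.

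To ask whether such regions can be found again in libraries that took no part in choosing them, regions were selected on the libraries of 1 age and counted in the other age. The catalogue was still merged from all 36 libraries, and the same fractions were present at both ages. Few calls outside CLPs thus follow in part from the selection, and the test does not remove this. On young libraries, 1059 regions were called in both CLP libraries and in 0 of 16 others. Aged CLP 1 called 66.0% of them and aged CLP 2 called 82.9%, whereas the 16 other aged libraries called between 0.0% and 7.84%. The groups did not overlap, and the CLP mean exceeded that of the other libraries by 72.0 percentage points (exact two-sided permutation test over libraries, p = 0.00654, the smallest this design can give, n = 2 and 16, adjusted p = 0.0131 over 4 tests). On aged libraries, 1108 regions were selected in the same way. Young CLP 1 called 63.6% and young CLP 2 called 74.2%, and the 16 other young libraries called between 0.0% and 10.6%, the highest being young GMP 2. The difference was 67.0 points (exact permutation test, p = 0.00654, n = 2 and 16, adjusted p = 0.0131). For scale, the 4 CLP libraries called between 25.05% and 31.7% of all regions. The permutation test treated libraries as independent, although libraries of 1 age may share a pool. Its p therefore does not measure the spread among mice, and CLPs are 1 fraction.

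**Figure D1:**
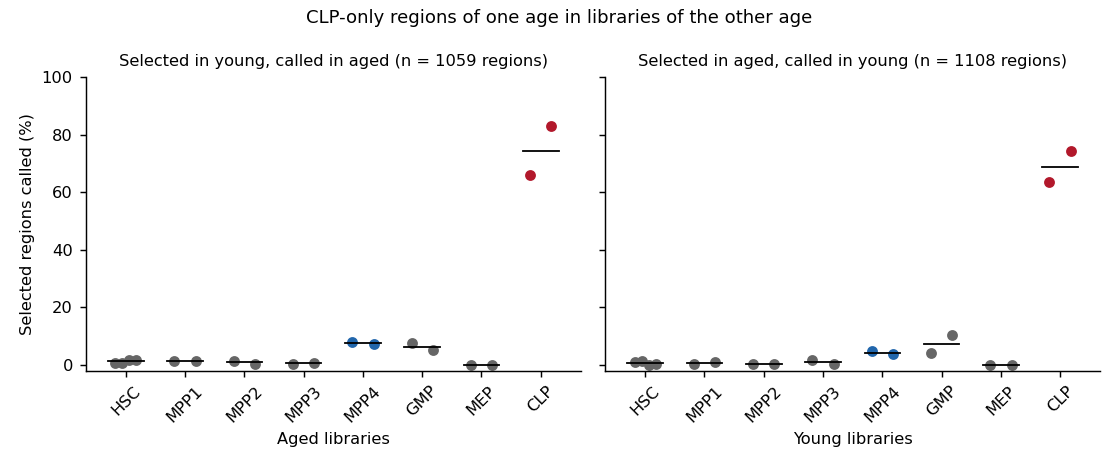
Percent of regions selected as CLP-only in one age (left, young; right, aged) that were called in each library of the other age, by fraction; points are libraries and lines are fraction means. CLP libraries sit between 63.6% and 82.9%, and all others at 10.6% or below.

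Among the other fractions, calls at these regions were most frequent in MPP4, the lymphoid-primed multipotent progenitors, and in GMPs. The 2 aged MPP4 libraries called 7.84% and 7.37% of the young-selected regions, and the other 14 aged non-CLP libraries called 1.68% on average, a difference of 5.92 points (exact two-sided permutation test, p = 0.0167, n = 2 and 14, adjusted p = 0.0222). The aged GMP libraries reached 7.46% and 5.29%, and thus overlapped MPP4, but they called 56.3% and 55.9% of all regions against 30.8% and 32.02% in MPP4. In the reverse selection young MPP4 called 4.87% and 3.70%, a difference of 2.74 points from the other libraries that did not pass (exact permutation test, p = 0.142, n = 2 and 14, adjusted p = 0.142). There the young GMP libraries called 4.06% and 10.6%. After each share was divided by the percent of all regions called in that library, this difference passed too (exact permutation test, n = 2 and 14, adjusted p = 0.025). Whether the MPP4 difference depends on the direction of selection was not tested. Libraries were again treated as independent, so these p-values do not measure the spread among mice. HSC libraries called between 0.661% and 1.89% of young-selected and between 0.0903% and 1.26% of aged-selected regions, and MEP libraries called at most 0.0903%.

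E-boxes were the sequence feature that CLP-only regions held most often among the 21 patterns searched. The rule used no sequence, but the patterns were chosen with earlier results of these data known. The study had already reported E2A motifs as enriched in its cluster of peaks with highest accessibility in CLPs. Within 100 bp of the summit, 530 members (59.2%) held CAGCTG or CAGGTG on either strand, against 24.6% of all regions, 32.3% of distal regions called in at least 3 CLP libraries, 18.5% of GMP-only and 26.7% of MEP-only regions. CAGCTG, the same on both strands, was in 314 members (35.04%) and 14.6% of all regions, and CAGGTG, which E proteins and ZEB factors both bind, was in 35.8% and 11.9%. At least 2 E-boxes were in 20.0% of members and 3.91% of all regions, and at least 3 in 5.58% and 0.541%. These shares describe letters in a window and are no evidence of binding, and CAGGTG shares letters with 1 form of the CTCF pattern (AGGTGGC).

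Patterns of other lymphoid regulators were also more frequent in members. The RUNX pattern TGTGGTT was in 22.9% of members against 11.3% of all regions, the ETS-IRF composite GGAANNGAA, bound by PU.1 or Spi-B with IRF4 or IRF8, in 18.1% against 8.87%, the IRF pattern GAAANNGAA in 13.95% against 8.26% and the MEF2 pattern CTATTTNTA in 2.34% against 1.11%. In distal regions called in at least 3 CLP libraries the shares were nearer to those of members. They were 16.3% for RUNX, 11.5% for ETS-IRF, 9.71% for IRF and 1.45% for MEF2. E-box and ETS-IRF stood together in 92 members (10.3%), against 2.05% of all regions. E-box and RUNX stood together in 110 (12.3%), against 2.70%. The ETS-IRF composite without any E-box was in 7.81% of members and 6.81% of all regions. These are shares of each whole set, and 59.2% of members but 24.6% of all regions held an E-box. They thus do not compare regions that lack one. Of 366 members without an E-box, 70 held the composite. Of the 104825 windows in the catalogue, 25782 held an E-box and 7141 held the composite without one. Only 19.5% of members held none of the E-box, ETS-IRF, IRF and RUNX patterns, against 55.9% of all regions.

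The other patterns differed less or were less frequent in members. STAT (TTCNNNGAA) was in 7.14% of members and 5.68% of all regions, and HOX (TTTATGG) in 2.46% and 2.13%. The ETS pattern AGGAAGT was in 17.7% of members and 20.0% of all regions, and its PU.1 form GAGGAAGT, which contains it, in 7.25% and 8.44%. The Ikaros letters TGGGAA were in 16.5% and 17.2%, MYB (GGCAGTT) in 3.57% and 3.54%, TCF/LEF (CTTTGAT) in 2.01% and 2.21%, and FOXO (TGTTTAC) in 2.01% and 2.49%. Distal regions called in at least 3 CLP libraries had 14.8%, 3.47%, 1.90% and 2.14% for these patterns, so Ikaros was more frequent in members there. The EBF pattern TCCCNNGGG was in 16 members (1.79%), below the 3.49% of all regions, and PAX5 (GCGTGAC) in 6 (0.670%), against 0.990%. AP-1 (TGANTCA) was in 3.68% against 11.3%, CTCF in 9.26% against 10.3% and NF-kB (GGGANTTCC) in 1.00% against 1.41%. The erythroid GATA pattern AGATAA was in 5.69% of members and 58.3% of MEP-only regions, and the myeloid CEBP pattern TTGCNNAA in 5.80% of members and 31.3% of GMP-only regions. Each set of regions called in 1 fraction thus had its own leading pattern.

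**Figure D2:**
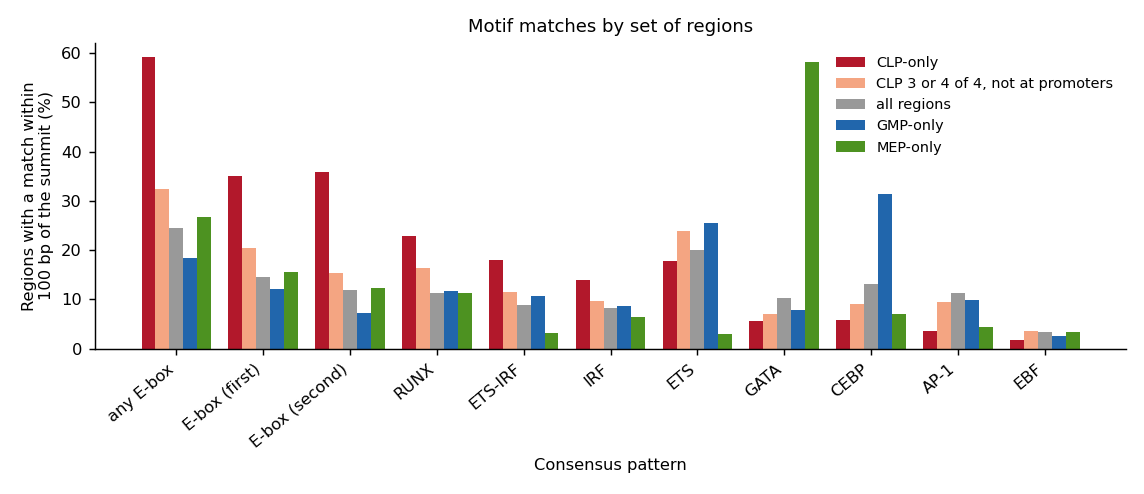
Percent of regions with a match within 100 bp of the summit for 11 of the patterns, by set of regions (bars); the first E-box is CAGCTG and the second is CAGGTG. CLP-only regions lead for E-boxes (59.2% with either), MEP-only regions for GATA (58.3%) and GMP-only regions for CEBP (31.3%).

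E-boxes in members and in all regions also differed in position. Of 774 E-box matches in members, 29.5% had their centre within 25 bp of the summit and 18.6% at 75 to 100 bp, against 25.1% and 23.5% of the 30620 matches in all regions. The rule used the CLP calls themselves, so the following shares only describe the members, and no conclusion is drawn from them. Among members with 0 E-boxes, 45.1% of 366 were called in 4 of 4 CLP libraries, against 59.5% of 351 with 1, 69.0% of 129 with 2 and 62.0% of 50 with at least 3. Median fold enrichment was 7.45, 7.53, 8.06 and 7.85 in these classes, and their quartiles overlapped. The share called in 4 of 4 was 57.4% with the ETS-IRF composite and 54.6% without it, and 58.0% with RUNX and 54.3% without. With the IRF pattern it was lower, at 44.8% against 56.8% without it. The members are not independent samples, so these are given without a test.

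**Figure D3:**
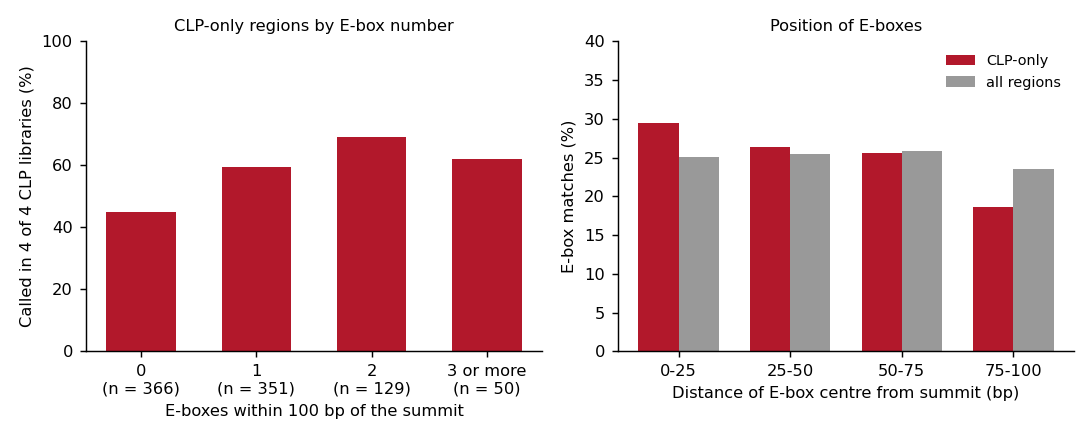
Left, percent of CLP-only regions called in 4 of 4 CLP libraries by the number of E-boxes within 100 bp of the summit; right, percent of E-box matches by distance of their centre from the summit in CLP-only and all regions. The share called in all 4 libraries is lowest without an E-box (45.1%), a description only, since the rule used these calls. Members hold more of their E-boxes within 25 bp (29.5% against 25.1%).

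The strongest members lay at genes of varied function. The highest of all was at chr18:68865780-68866093, between Mc2r and Tcf4, with fold enrichments of 15.1 and 16.3 in young and 15.3 and 18.6 in aged CLPs (mean 16.3 ± 1.56, SD, n = 4). The next lay in an intron of Ccr9, the receptor for the gut and thymus chemokine CCL25, at chr9:123762905-123763223, with 14.9, 15.6, 13.4 and 18.7 in the same order. Aged CLP 2 was highest at both. The member 110481 bp upstream of Stc1 had 13.4, 16.2, 13.6 and 15.1, and the promoter member of Gtf2i, a general transcription factor gene, had 16.7, 16.7, 16.1 and 14.1. The ages overlapped at each of these 4, except at Gtf2i where both aged libraries lay below both young ones. For scale, both aged libraries lay above both young ones at 19.1% and below them at 16.9% of all regions called in 4 of 4 CLP libraries. Those shares used values centred on each library's median. Introns of Wdr35, Rbm47 and St6gal1, which encodes a sialyltransferase, and DNA 23493 bp upstream of Siglech completed the 8, with means between 13.7 and 13.9.

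The E protein gene Tcf4, which encodes E2-2, the factor that specifies plasmacytoid dendritic cells, had 5 members in the intergenic DNA on its sides, although each was nearer to another TSS. This locus was singled out after the values were seen. Upstream, between Mc2r and Tcf4, lay the strongest member and chr18:68506058-68506519 (9.29, 15.3, 11.1 and 12.1, with 1 RUNX and 1 ETS-IRF match). Downstream, between Tcf4 and Ccdc68, 3 members lay within 10 kb, at chr18:69823243-69823601 (12.7, 14.5, 11.7 and 16.8), chr18:69826040-69826277 and chr18:69832407-69832792, each with 1 E-box. The last 2 were not called in young CLP 1 and had fold enrichments between 5.92 and 7.56 in the other 3 libraries. The promoter of Tcf4 itself was called in all 36 libraries.

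Genes were linked to members by the nearest TSS, although a region can act on another gene. By this rule 787 of 21840 genes (3.6%) had a member. Of these, 689 had 1, 91 had 2, 3 had 3 and 4 had 4. The B-lineage list had 7 of 30 genes with a member (23.3%), the dendritic list 6 of 20, the signalling and homing list 6 of 25 (24.0%), the T, NK and innate lymphoid list 5 of 32 (15.6%) and the E protein list 1 of 9 (11.1%). Regulatory genes have more regions around them, so the members were also read against all regions of each list. They were 7 of 303 regions (2.31%) for B-lineage, 7 of 308 (2.27%) for dendritic, 7 of 362 (1.93%) for signalling and homing and 5 of 436 (1.15%) for T, NK and innate lymphoid genes, against 0.853% of all regions. For E proteins and inhibitors it was 1 of 163 (0.613%). When a gene was instead credited with members inside it or between it and its neighbours, 8.53% of all genes had a member, against 11 of 30 B-lineage, 7 of 32 T, NK and innate lymphoid, 7 of 20 dendritic, 10 of 25 signalling and homing and 2 of 9 E protein genes.

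B-lineage members lay outside the promoters of their genes as defined here, although that of Cd22 was only 1158 bp upstream of its TSS. Foxo1, which is needed for expression of the IL-7 receptor and the Rag genes, had a member 128020 bp downstream of its TSS (11.03, 11.2, 8.59 and 14.4). Ly6d, which marks the B cell-biased CLPs, had a member 5729 bp upstream (8.51, 8.08, 9.72 and 10.5). Pax5, the factor that commits cells to the B lineage, had a member 85495 bp inside the gene (13.7, 10.1, 5.94 and 10.5), although its promoter was called in 0 libraries. Dntt, which adds nucleotides at antigen receptor joints, had a member 15071 bp upstream with 2 E-boxes (9.13, 5.65 and 7.85, without a call in aged CLP 1). Members at Lef1, Cd22 and Cd24a were called in 3 libraries, with means of 7.06, 5.80 and 5.42.

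Of the 5 T, NK and innate lymphoid genes, 4 had a member that was called in 3 libraries. Lck, the kinase next to the T cell receptor, had a member at its promoter, chr4:129558338-129558691, with 6.42 and 5.39 in young and 7.17 in aged CLP 2. Gata3, the factor of T cells and innate lymphoid cells, had a member 75871 bp downstream of its TSS with 4.69, 5.83 and 5.14. Tox (mean 8.29 ± 0.858, n = 3) and Cd247 (6.40 ± 0.231, n = 3) likewise lacked a call in aged CLP 1, whereas Rora, needed for innate lymphoid cells, was called in 4 (7.76, 6.29, 6.31 and 6.49).

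The strongest member of any listed gene was that of Ccr9, described above, which is on both the dendritic and the signalling and homing list. Siglech, a surface lectin of plasmacytoid dendritic cells, had 2 members, at 23493 bp upstream (14.9, 13.1, 13.99 and 13.1) and 2684 bp upstream (7.98, 11.1, 8.12 and 11.8). Irf8, which plasmacytoid and conventional dendritic cells need, had a member 38768 bp downstream with 2 E-boxes (6.38, 7.01, 10.5 and 6.31). Zeb2 had 9.58, 9.20, 7.76 and 6.51 at 147552 bp upstream, and Zbtb46, a marker of conventional dendritic cells, was called in 3 libraries (mean 5.77).

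Among signalling and homing genes, S1pr1, the receptor for exit into blood and lymph, had members on both sides of its TSS, with means of 7.996 ± 0.940 and 7.67 ± 0.594 (n = 4). Cxcr4, the marrow retention receptor, had 6.91, 10.1, 7.40 and 6.31 at a member 282235 bp upstream. Jak1, which carries the IL-7 signal, and Bcl2, which keeps lymphocytes alive, each had an intronic member called in 3 libraries (means 7.94 and 7.73). Tcf12, which encodes the E protein HEB, had a member 54984 bp upstream with 5.39, 9.72 and 11.3, and no call in young CLP 1. Among the members of these lists that are reported here and were called in 4 libraries, the ages overlapped at 10. Both aged libraries lay above both young ones at Ly6d and below them at Zeb2. For scale, all regions called in 4 of 4 CLP libraries gave 19.1% and 16.9%, on values centred on each library's median.

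**Figure D4:**
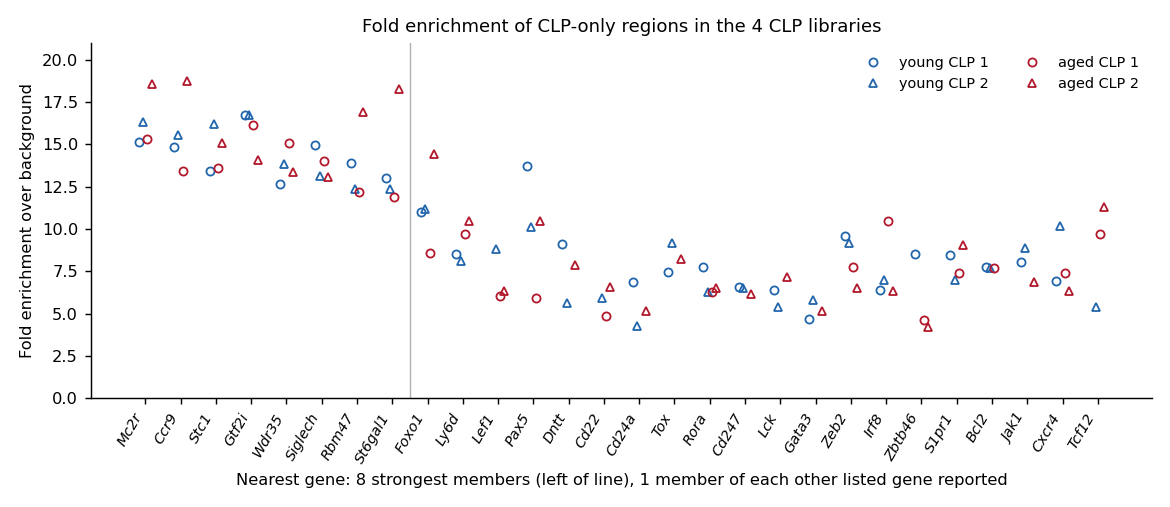
Fold enrichment over local background in the 4 CLP libraries (points, coloured by age) for the 8 strongest CLP-only regions, left of the line, and for 1 member of each other listed gene reported; a missing point is a library without a call. The strongest members lie between 11.9 and 18.7, and most members of listed genes lie below 10.5.

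Genes with most members were Camk1g, Efna5, Rapgef5 and Foxp1 with 4 each, and Ccdc68, Arpp21 and Mettl14 with 3. Members were 4 of the 36 regions nearest to Camk1g, 4 of 45 for Efna5, 4 of 53 for Rapgef5 and 4 of 91 for Foxp1. For Ccdc68, Arpp21 and Mettl14 they were 3 of 8, 3 of 20 and 3 of 7, against 0.853% of all regions. This order does not allow for the number of regions near each gene. Mc2r was 1 of the 91 genes with 2, named because its best member ranked highest among them. Foxp1 is a factor needed for early B cell development, and its 4 members lay in its introns, each called in 3 libraries, with means between 5.43 and 6.58. Arpp21 is transcribed in lymphoid precursors, and its members had means of 10.9, 5.65 and 6.48. Of the 4 members of Efna5, 3 were called in 4 libraries, and chr17:62781089-62781564 gave 9.23 and 8.94 in young and 5.88 and 5.81 in aged CLPs. Rapgef5 had 4 members upstream of its TSS, of which chr12:117348521-117349006 gave 5.64 and 4.71 in young and 13.1 and 8.14 in aged CLPs. The ages did not overlap at these, in opposite directions, nor at chr1:193835427-193835728 of Camk1g (10.96 and 8.91 in young, 5.77 and 7.499 in aged) or at chr3:123348368-123348705 of Mettl14 (6.09 and 6.86 in young, 8.10 and 8.95 in aged). These 4 were named after their values were seen, and such regions are common among all tested (19.1% above and 16.9% below). The 3 members assigned to Mettl14 lie in introns of Sec24d.

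Another member lay within 50 kb of 135 members (15.1%). At this distance 64 chains of at least 2 were formed, 6 of them with at least 3. The same counts were not made for other regions. Whether members group more or less than other regions was therefore not tested. The longest chain held 4 members at chr2:158706953-158752171, in and beside Ppp1r16b, all called in 4 libraries. Members lay on all autosomes and X, from 0.617% of regions on chromosome 15 to 1.18% on chromosome 18. In the antigen receptor loci, 3 of 125 regions in Igh, 2 of 4 in Igl and 0 in Igk, Tra with Trd, Trb and Trg were members. The Igl member chr16:19179310-19179750 gave 12.8, 13.6, 10.2 and 15.5 and held 2 E-boxes and 1 ETS-IRF match.

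The 15 promoter members were no lymphoid set. Besides Gtf2i and Lck, those reported here lay at Mgat5, Timd2, Wfdc21, Ripor2, Fam50b, Duxbl1, Adam2, Hnrnpl, Olfr572, Gm10717 and Pde4a, with means between 5.22 and 15.9 except at Gm10717, where fold enrichment was 1.96, 1.99 and 1.98. Those 3 values were the lowest of any member in their libraries. For members away from promoters, the promoter of the nearest gene was called in all 36 libraries for 27.6%, in no library for 18.7% and in CLPs only for 0, against 28.3%, 17.4% and 0.0185% of all such regions. Each share was near that of all such regions.

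The effect of age within CLPs was tested at the 21315 regions called in all 4 CLP libraries, 494 of which were members. No region passed an adjusted p of 0.05 (0.0% of all tested; limma on log2 fold enrichment centred on each library's median, without a replicate block, two-sided, Benjamini-Hochberg adjustment, n = 2 per age). At an unadjusted p under 0.05, 68 members were higher and 13 lower in aged CLPs, 13.8% and 2.63% of members, against 3.66% and 3.43% of all tested regions. Both aged libraries lay above both young ones at 139 members (28.1%) and below at 55 (11.1%), against 19.1% and 16.9% of all regions.

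The members' median change was 0.13 on the log2 scale (quartiles -0.08 and 0.33), against 0.01 over all tested regions. It was near 0 at non-members away from promoters (-0.0019), at non-members with an E-box (0.0046) and at non-members within the members' quartiles of mean fold enrichment, 7.02 to 10.0 (-0.0040). Members with and without an E-box had medians of 0.11 and 0.14. The centred log2 values of the 494 members had medians of -0.37 and -0.38 in the young libraries and of -0.20 and -0.24 in the aged, so both aged libraries stood above both young ones. No p is given for this shift, since the members were chosen with the results known.

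The smallest adjusted p was at an intronic member of Pir on chromosome X, chrX:164280772-164281161, with 6.38 and 9.16 in young and 15.7 and 20.4 in aged CLPs (log2 change 1.23 ± 0.21, SE, limma adjusted p = 0.0717). It was also the largest rise. The next by p lay 262974 bp upstream of Brinp3, with 5.79 and 7.32 in young and 12.6 and 14.6 in aged (log2 change 1.06 ± 0.23, limma adjusted p = 0.279). Of members that were lower in aged CLPs, 1 downstream of Tbc1d1 had the smallest p, with 11.7 and 12.7 in young and 7.56 and 7.64 in aged (log2 change -0.69 ± 0.23, limma adjusted p = 0.4996). These 3 were chosen after their values were seen, and none passed in this fit, which had no replicate block. With the replicate number as a block, the member at Pir passed (limma adjusted p = 0.00628), as set out under processing. Among the listed genes reported here, Pax5 (-0.58 ± 0.25) and Zeb2 (-0.40 ± 0.26) had the largest changes, at limma adjusted p of 0.638 and 0.811.

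**Figure D5:**
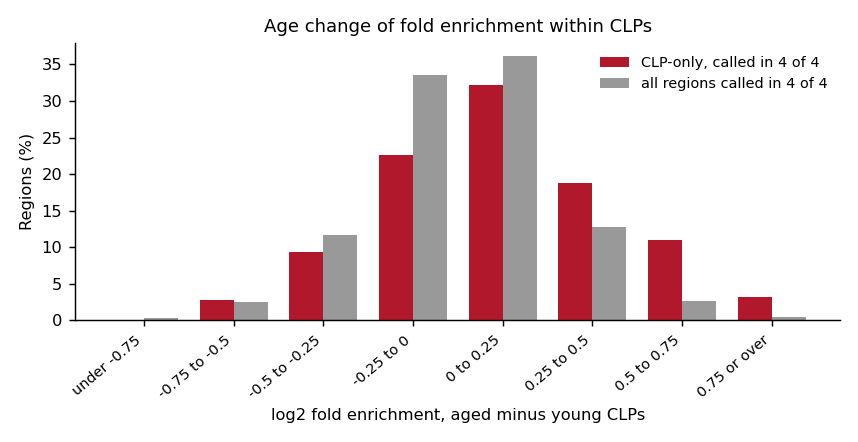
Percent of regions by their log2 change in fold enrichment, aged minus young CLPs, for the 494 CLP-only regions and all 21315 regions called in 4 of 4 CLP libraries. More members than other regions lie above 0.25, and no single region passed the adjusted threshold without a replicate block.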

How the data were processed

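The authors sequenced the libraries as single reads of 60 bp from fragments of 240 to 360 bp, aligned them with Bowtie2 to mm10, subsampled mapped reads to the same number and called peaks per library with MACS2 2.2.6 without its model. The deposited lists give per summit a fold enrichment (a ratio over local background), the -log10 p-value and -log10 q-value, and a score made from the q-value. They hold no counts, and columns of p-value and score were not used further. Per the labels, libraries fell into 8 fractions and 2 ages. Peaks of all libraries overlapping by 1 bp were merged, and a region was called where it overlapped a library's peak. Regions were annotated by their centre with protein-coding transcripts of GENCODE vM21 (basic set). The 21 patterns were searched on either strand in windows reaching 100 bp from the median summit. The narrowest peak was 170 to 183 bp in CLP libraries and shorter in GMP libraries, which limits comparisons of width.

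Ages were compared with limma 3.58.1 (R 4.3.3) on log2 fold enrichment of the highest summit, with a mean-variance trend, and held-out selections with exact permutation tests in Python 3.11.15; both were tested on simulated data. Fold enrichment of members called in all 4 libraries is conditioned on a call. Members, gene lists and patterns were chosen with earlier results of these data known. Members were named by fold enrichment ranked within each library, taking the library where it ranked lowest (8), by number per gene (8 genes), and by list (up to 8 genes each); those named otherwise are marked in the text, and a few genes are not reported here. Alternatives were stricter calls, other merging, equal peak numbers, other motif and promoter windows, other scalings, a replicate block and leaving out libraries.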

Additional observations from a re-analysis of the deposited data

How the results depend on the processing

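Of 89 alternative values, 70 kept their direction and side of the threshold or stayed within the limits set for a change. The number of CLP-only regions fell to 494 when all 4 CLP libraries were required and rose to 1472 when every library but those of MEPs was cut to its strongest 27087 peaks, and it lay between 527 (without aged CLP replicate 2) and 670 without 1 CLP library and with calls in the other 3 required. At 542, the value without young CLP replicate 2 also moved by over 1.5 times. The other alternatives gave 852 to 1266. The share at promoters was 4.35% with promoters of 2000 bp on either side of a TSS. CAGCTG was in 38.5% of members called in 4 of 4 libraries and, within 50 bp of the summit, in 20.3% of members, and EBF in 1.00% within 50 bp.

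The CLP excess in held-out libraries lay between 63.6 and 80.5 points for young-selected and between 61.7 and 72.3 points for aged-selected regions without 1 library. With 1 CLP library left the smallest exact p is 0.0588, so this design cannot pass. The MPP4 difference for young-selected regions lay between 5.69 and 6.16 points without 1 library; with 1 MPP4 library left the smallest exact p is 0.0667. The MPP4 difference for aged-selected regions passed, at 0.0994 on a ratio scale, once shares were divided by the percent of all regions called, a share that was highest in GMP libraries; without 1 library it lay between 2.15 and 3.33 points and did not pass.

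In the age test 0 regions passed in most settings. With the replicate number as a block (a paired fit, replicate block), 5 of 21315 regions passed, 1 of them a member, at Pir (limma adjusted p = 0.00628). Same-numbered libraries' deviations correlated at 0.0469, and the labels give no batch or pool for a number, although peak names of both libraries numbered 2 hold the word "new" and both numbered 1 gave fewer peaks. Whether the numbers mark a batch was not tested. Without 1 library, between 0 and 1 region passed. The members' median change stayed positive, between 0.11 and 0.15 on fold enrichment, and was 0.28 with -log10 q on a log2 scale. The cause of these changes was not tested. With no read counts, weak regions cannot be told from closed ones.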
